A study of Rattus norvegicus with 16 samples.

Results

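Ddit3 and Gadd45a are genes first named for transcripts that accumulate when cells stop growing or suffer DNA damage. Every probe set of the deposited array table whose platform gene symbol is Ddit3 or Gadd45a was taken, which gave 5 of 1031 probe sets, 1 for Ddit3 and 4 for Gadd45a, for 2 of the 549 genes that the table names. The cells were NG108, a line labelled as rat neuronal and known as a fusion of mouse neuroblastoma with rat glioma cells. The 8 control samples were given 0.25% dimethyl sulfoxide (DMSO), a common drug solvent, and 8 samples were given mefloquine, an antimalarial drug, at 4400 ng/ml. Exposure lasted 2 hours in both groups, and each sample was hybridised to 1 Affymetrix rat array. The labels do not say whether the mefloquine samples also held DMSO, nor whether the samples came from separate cultures, so the errors given here may be technical. The pair was selected on the mefloquine against DMSO difference of Ddit3, already known from these arrays. The treatment differences of both genes are therefore given as a description, with intervals and without a test.

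Ddit3 encodes CHOP, a transcription factor of the C/EBP family that pairs with other C/EBP proteins and alters which DNA sites they bind. Its gene is switched on through the integrated stress response, in which kinases phosphorylate the initiation factor eIF2 and the factor ATF4 is made in larger amount, and prolonged CHOP expression is known to favour cell death under endoplasmic reticulum stress. Gadd45a encodes a small acidic nuclear protein that binds PCNA, the Cdk1 and cyclin B1 complex and the kinase Map3k4, upstream of the p38 and JNK kinases. It is known as a target of p53 and is also induced by stress without p53.

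The arrays were alike in overall brightness, with median intensities of 461 to 665 over 972 gene probe sets. DMSO control 3 stood apart: its ratio of 3' to 5' signal for beta-actin, a measure of RNA length, was 21.3 against 1.31 to 2.67 on the other arrays, and it correlated with them less well, at a median of 0.855. Mefloquine 1 and 2 were next, at 0.901 and 0.913. The arrays numbered 6 to 8 also differed from those numbered 1 to 5 in both groups. The labels do not say what the numbers stand for, and these 2 ranges were noticed on the same arrays that are described here. The neuronal label could not be checked, since none of 19 neuronal markers had a probe set of its own in the table. Of 15 glial markers 2 had one, the filament gene Vim, at 11649 to 21222 intensity units over all arrays, and the secreted chaperone gene Clu, at 819 to 2302. Of 10 genes listed as immune and endothelial markers 2 had one. The endothelial receptor gene Kdr was at or below the floor, an intensity of 427 under which values carry no order here, on all 16 arrays. Col1a1 was above it on all 16, but it is a collagen gene of fibroblasts and related cells and marks neither immune nor endothelial cells.

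The Ddit3 probe set differed between the treatments. The brightest Gadd45a probe set differed between the replicate ranges, and the other tested Gadd45a probe sets showed no such step. The sequences before the transcription starts are shown for reference, and no link of them to these differences was tested. Both sequences are the 250 bases before the start in the rat RefSeq assembly GRCr8, written 5' to 3' along the gene. In that assembly the Ddit3 stretch lies on chr7:65001445-65001694 (plus strand) and the Gadd45a stretch on chr4:97486800-97487049 (minus strand). Capitals mark matches to the AP-1 motif and the CCAAT box in Ddit3, and to the octamer motif and the CCAAT box in Gadd45a.
Ddit3: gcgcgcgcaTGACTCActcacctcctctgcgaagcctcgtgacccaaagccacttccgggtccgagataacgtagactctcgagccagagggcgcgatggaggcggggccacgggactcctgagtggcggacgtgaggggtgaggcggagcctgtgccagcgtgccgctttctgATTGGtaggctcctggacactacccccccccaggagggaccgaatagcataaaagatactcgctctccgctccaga
Gadd45a: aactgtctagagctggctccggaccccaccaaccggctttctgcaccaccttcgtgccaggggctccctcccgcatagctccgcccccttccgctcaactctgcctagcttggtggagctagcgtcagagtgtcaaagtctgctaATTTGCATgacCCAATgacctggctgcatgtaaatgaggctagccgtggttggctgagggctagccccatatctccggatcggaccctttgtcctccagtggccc

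Of 7 motifs searched on both strands, each of these stretches held 2. Ddit3 had 1 match to the AP-1 motif TGANTCA, from base 241 to base 235 before the start, and AP-1 is the site of Jun and Fos dimers. That motif was present in 6.34% of the 33469 RefSeq windows of the same length. Gadd45a had 1 match to the octamer ATTTGCAT, the site of POU-domain factors such as Oct-1, from base 105 to base 98, and 1.56% of all windows had one. Both genes had 1 match to the CCAAT box, on the reverse strand in Ddit3 (bases 76 to 72, read as ATTGG) and on the gene's strand in Gadd45a (bases 94 to 90), as did 34.0% of windows. Neither stretch matched the cAMP response element TGACGTCA (1.59% of windows), the core TGATGNAA of the amino acid response element (3.4%), the endoplasmic reticulum stress element (ERSE, 0.0657%) or the TATA box TATAAA (12.9%). The stress element contains a CCAAT box, and the other motifs did not overlap in these stretches. A match was counted only where every fixed base of a motif was present. Read from its reverse-strand box onward, the Ddit3 stretch differs from the full stress element at 1 fixed base. The search therefore shows no exact copy of that element in Ddit3, and does not exclude a variant of it. The counted matches describe the reference sequence, and no occupancy was measured on the arrays.

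Ddit3 was brighter on every mefloquine array than on any control array. Its probe set, U30186_at, read between 272.5 and 1686 intensity units in DMSO cells (median 584) and between 1745 and 4791 in mefloquine cells (median 2851). The groups did not overlap, but the gap was narrow: the lowest mefloquine array, mefloquine 8 at 1745, lay just above the highest control, DMSO control 3 at 1686. The other 7 controls were all at 761 or below, so that without DMSO control 3 the gap was wide. Of all 545 tested probe sets, 3 (0.55%) had all 8 mefloquine arrays above the highest control, and Ddit3 was 1 of them.

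The Ddit3 means were 692 ± 429 and 3159 ± 1026 (SD, n = 8 each), a 4.57-fold ratio. Without DMSO control 3 the control mean was 550 ± 164 (SD, n = 7). On the log2 scale, with values below the floor raised to it, the difference was 2.22 ± 0.26 (SE), which is 4.66-fold with a 95% interval of 3.17 to 6.85. The control arrays DMSO control 2 and 8 were below the floor, so this scale can understate the difference. In limma's test over all probe sets with Benjamini-Hochberg adjustment, 6 of 545 (1.1%) were called higher and 1 lower (0.183%). Ddit3 was among the 6, and nothing is read from that since it was chosen for it.

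**Figure D1:**
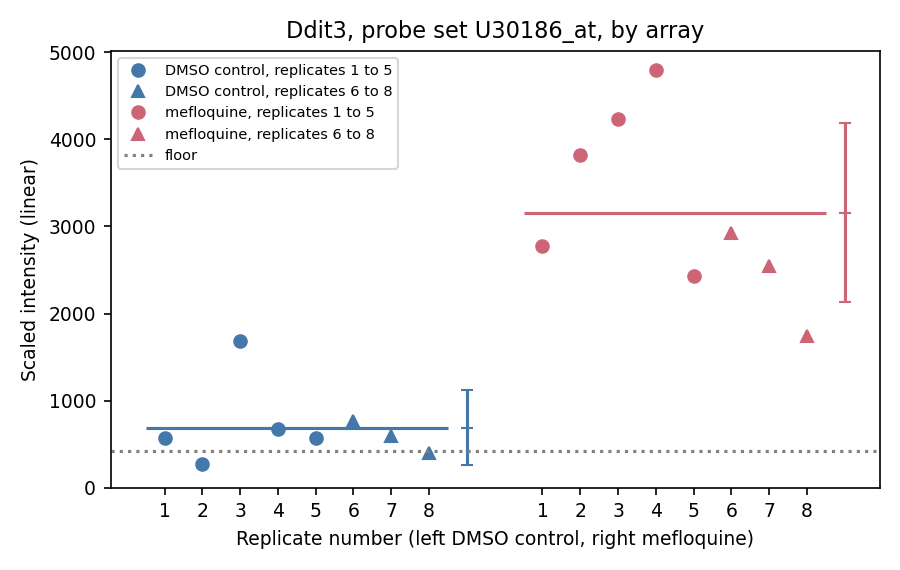
Scaled intensity of the Ddit3 probe set (linear axis, in intensity units) on each array, by replicate number, with DMSO control at left and mefloquine at right; circles are replicates 1 to 5 and triangles 6 to 8. Horizontal lines are group means, bars are ± SD (n = 8 each) and the dotted line is the floor; all mefloquine points lie at or above 1745, and the highest control, replicate 3, is at 1686.

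The size of the Ddit3 difference varied from array to array within the mefloquine group. The mefloquine arrays numbered 1 to 5 read 2780, 3826, 4231, 4791 and 2430, and those numbered 6 to 8 read 2921, 2546 and 1745. The controls with the same numbers read 572, 272.5, 1686, 670 and 571, and then 761, 597 and 404. At each of the 8 numbers the mefloquine array was higher. At numbers 2 and 8, where the control was below the floor, it was at least 8.97-fold and at least 4.09-fold higher. At the other 6 numbers the ratio ran from 2.51-fold at number 3, the number of the highest control, to 7.15-fold at number 4.

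Within replicates 1 to 5 the Ddit3 log2 difference was 2.34 ± 0.35 (SE, n = 5 each) and within replicates 6 to 8 it was 2.02 ± 0.28 (SE, n = 3 each). These correspond to 5.06-fold and 4.06-fold, and their intervals overlapped widely (2.99 to 8.57 and 2.56 to 6.43). An interaction of treatment with range, fitted with limma, passed for 0 of the 545 probe sets (23 at an unadjusted p below 0.05). Without DMSO control 3 and mefloquine 1 and 2 the Ddit3 difference was 2.38 ± 0.22.

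Gadd45a showed no such separation of the treatments by any of its probe sets. The brightest, L32591mRNA_at, read 365 to 3301 in DMSO cells (median 1315) and 419 to 2261 in mefloquine cells (median 1203), so the mefloquine values lay inside the span of the controls. Its means were 1356 ± 1007 and 1222 ± 690 (SD, n = 8 each), and its log2 difference was -0.03 ± 0.47 (SE). The 95% interval of the ratio ran from 0.490 to 1.96. Falls and rises up to these sizes therefore stayed compatible with the values of this probe set over all arrays. The log2 difference was 0.21, of the opposite sign, without DMSO control 3, and -0.21 without DMSO control 6 or 8.

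The second probe set from the same mRNA record, L32591mRNA_g_at, was steadier. It read 279 to 706.5 in DMSO cells (median 576) and 511 to 817 in mefloquine cells (median 697). Of the 8 mefloquine arrays 3 lay above the highest control, and the lowest value of all, 279, was DMSO control 3. The means were 560 ± 142 and 679 ± 100.1 (SD, n = 8 each), with a log2 difference of 0.24 ± 0.13 (SE) and an interval of the ratio of 0.970 to 1.43. Without DMSO control 3 it was 0.18 ± 0.12.

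The remaining Gadd45a probe sets come from an expressed sequence tag and were dim. rc_AI070295_g_at read 200 to 689.5 in DMSO cells and 268 to 757 in mefloquine cells, and 5 of its 16 values were at or below the floor. Its log2 difference was 0.01 ± 0.15 (SE), with an interval of the ratio of 0.811 to 1.24. rc_AI070295_at was at or below the floor on all 16 arrays, from -30.2 to 354, and was not tested. In all, 4 of the 5 member probe sets passed the filter on low values, as did 545 of the 972 gene probe sets. Of the 3 for Gadd45a none was called, where 1.28% of all tested probe sets were, and nothing is read from that.

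**Figure D2:**
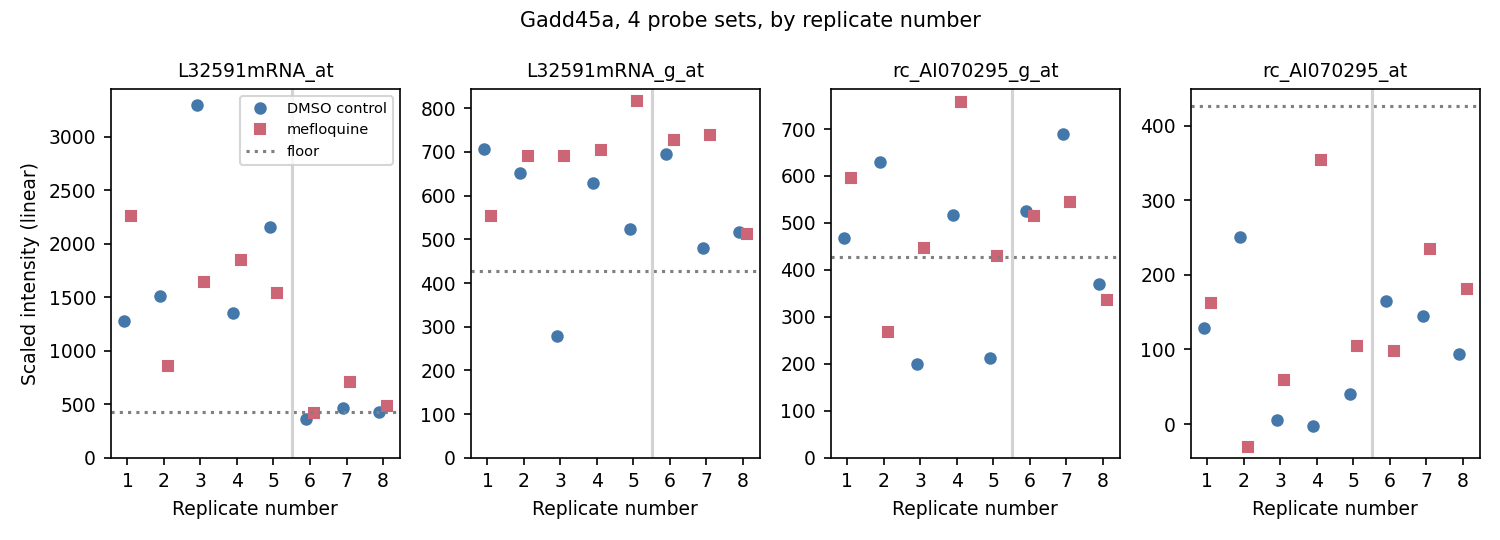
Scaled intensity (linear axes, in intensity units, with a different span in each panel) of the 4 Gadd45a probe sets against replicate number; blue circles are DMSO control, red squares mefloquine, and the dotted line is the floor. In the first panel, L32591mRNA_at, the arrays to the right of the grey line (numbers 6 to 8) lie at or below 712.5 in both groups and those to the left at or above 862, while the other panels show no such step.

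The largest differences of the brightest Gadd45a probe set lay between the replicate ranges. In DMSO cells L32591mRNA_at read 1278, 1509, 3301, 1352 and 2154 on the arrays numbered 1 to 5, and 365, 462 and 428 on those numbered 6 to 8. In mefloquine cells it read 2261, 862, 1645, 1847 and 1545, and then 419, 712.5 and 483. The lowest of the 10 arrays numbered 1 to 5 was thus above the highest of the 6 numbered 6 to 8, in both groups and over both together. This separation also held after quantile normalization (857 against 748) and after scaling by array medians (789 against 707).

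With treatment in the model, L32591mRNA_at was lower on the arrays numbered 6 to 8 by a log2 difference of -1.80 ± 0.23 (SE), a 3.47-fold step. It was -2.03 within DMSO arrays and -1.56 within mefloquine arrays. Without DMSO control 3 and mefloquine 1 and 2 it was -1.74 ± 0.14. With a floor at the 40th percentile, which lifts the low values, the step was 2.02-fold. Because the ranges were noticed on these arrays, this step is a description.

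Such steps were not particular to Gadd45a. Of the 545 tested probe sets, 26 (4.77%) had all 6 arrays numbered 6 to 8 below all 10 numbered 1 to 5, and 27 (4.95%) did not overlap in either direction. In limma with treatment in the model, 68 (12.5%) differed between the ranges at an adjusted p under 0.05. Ordered from the most negative log2 difference, L32591mRNA_at came at place 11, after probe sets of the peroxisome genes Pex2 and Pex11a and of Nos2, Cdc42bpa and Tgfb3, among others. These probe sets of Pex2 and Nos2 differed by -3.37 and -3.34 on the log2 scale. Another tested probe set of Pex2 differed by 0.24 ± 0.24 (SE), with its ranges overlapping. The other tested Gadd45a probe sets showed no step: L32591mRNA_g_at differed by -0.07 ± 0.14 (SE) and rc_AI070295_g_at by 0.03 ± 0.15. Ddit3 differed by -0.41 ± 0.26 (SE), with its ranges overlapping.

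Array measures were set beside this step. The ratio of 3' to 5' beta-actin signal had medians of 1.42 over the arrays numbered 1 to 5 and 1.49 over those numbered 6 to 8, and the GAPDH ratio medians of 1.23 and 1.29. The mean signal of the bacterial spike-in probe sets had medians of 19126 and 23777, with the spans overlapping (15970 to 62892 and 18726 to 31159). Without DMSO control 3 and mefloquine 1 and 2, the spike-in median over the arrays numbered 1 to 5 was 16721 (15970 to 25137). Median intensity over the same arrays was centred on 633 (610 to 665), against 547 (517 to 618) over those numbered 6 to 8. With the GAPDH ratio as a covariate the step was -1.75 ± 0.20 (SE). The part of spike-in signal in it was not tested.

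With the replicate range as a block, the treatment difference of L32591mRNA_at was again -0.03, with an SE of 0.22 in place of 0.47. The interval of the ratio then ran from 0.708 to 1.36. Because the ranges were noticed on these arrays, this interval can be too narrow. Within replicates 1 to 5 the log2 difference was -0.20 ± 0.32 (SE, n = 5 each), and within replicates 6 to 8 it was 0.27 ± 0.20 (SE, n = 3 each), so its sign was opposite in the 2 ranges and each interval spanned 0.

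**Figure D3:**
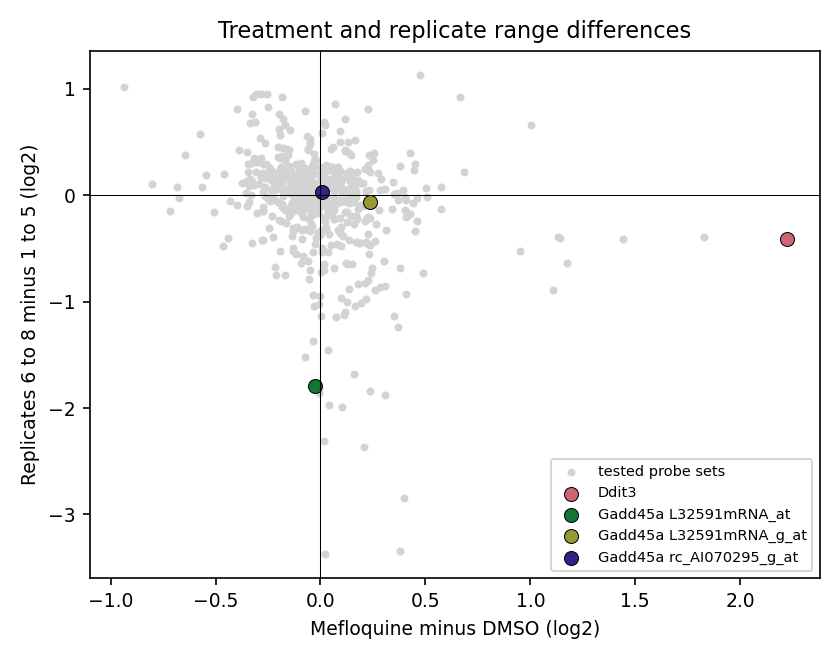
Log2 difference between the treatments (horizontal axis, mefloquine minus DMSO) and between the replicate ranges (vertical axis, 6 to 8 minus 1 to 5) for the 545 tested probe sets (grey), with Ddit3 and the 3 tested Gadd45a probe sets coloured. Ddit3 lies far right at 2.22, Gadd45a L32591mRNA_at far down at -1.80, and the other Gadd45a probe sets near the origin.

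Ddit3 and Gadd45a did not follow each other closely from array to array. As deviations from their group means over the 16 arrays, Ddit3 and L32591mRNA_at had a Pearson correlation of 0.482, which was 0.256 over 15 arrays without DMSO control 3, the array with the highest value of both among the controls. The Gadd45a probe sets did not follow each other either: L32591mRNA_at against L32591mRNA_g_at gave -0.0954, and 0.158 without DMSO control 3. Over all 16 arrays with the means of replicates 1 to 5 and 6 to 8 removed in each group it was -0.513, and Ddit3 against L32591mRNA_at was then 0.398. These values share arrays and their scaling and are given as a description.

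The spread of Ddit3 among controls also rested on DMSO control 3. The SD of its floored log2 value was 0.63 over 8 controls and 0.31 over the other 7, against 0.48 in mefloquine cells. For L32591mRNA_at the SD was 1.14 over 8 controls and 0.998 without DMSO control 3, and 0.92 in mefloquine cells.

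The genes most like Ddit3 in these deviations were Nfkbia, the inhibitor of NF-kappa-B (r = 0.722, n = 16), Jun, an AP-1 subunit (0.691), and the mitochondrial acyl carrier gene Ndufab1 (0.688). Without DMSO control 3 these were 0.586, 0.652 and 0.367, so Ndufab1 depended on that array most. In these comparisons each gene entered by its best-correlated probe set, which for Jun was not its brightest. Without centring on the group means, Nfkbia (0.921) and Jun (0.865) were again first followed by the desaturase gene Scd2 (0.671), where the shared treatment difference enters the value. The genes most like L32591mRNA_at were the arrestin gene Arrb1 (r = 0.929), Pex2 (0.925) and the growth factor gene Tgfb3 (0.923), and the same 3 genes came first without centring. The probe sets by which these 3 entered were also lower on the arrays numbered 6 to 8, by log2 differences of -0.64, -3.37 and -1.97. With the range means removed as well, the correlations were 0.753, 0.582 and 0.532.

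The other genes of these pathways were read from 6 lists. Together these held 114 genes besides Ddit3 and Gadd45a, of which 42 had a probe set of their own and 29 were tested, each by its brightest. Of the 29, 1 rose, 0 fell and 28 did not pass limma's test, against 1.28% of all probe sets called in either direction. Their median log2 difference was -0.02, beside -0.01 for all tested probe sets. The 95% interval lay inside a 2-fold change, up or down, for 26 of the 29. Of the GADD genes themselves, Gadd45b, Gadd45g and the phosphatase subunit Ppp1r15a had no probe set of their own.

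For Ddit3, 29 genes of the integrated stress and unfolded protein responses were listed, 7 of them tested and none called, with a median of -0.05. All 7 were chaperones or disulfide isomerases of the endoplasmic reticulum. No listed kinase or transcription factor upstream of Ddit3 was tested. Atf4, Atf3, Trib3 and the eIF2 kinase Eif2ak3 had no probe set of their own. The chaperones Hsp90b1 and Calr differed by 0.38 ± 0.43 and 0.35 ± 0.34 (log2, SE), but by -0.06 and -0.00 without DMSO control 3, where both were far below the other controls. The disulfide isomerase Pdia3 differed by -0.26 ± 0.24 and the lectin chaperone Canx by -0.22 ± 0.14. These were at -0.31 and -0.14 without DMSO control 3, and at -0.04 and 0.01 when mefloquine 1 and 2 were left out as well. A gap between the groups like that of Ddit3 was found for 3 of the 545 tested probe sets (0.55%) and not for these 4 genes.

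Among 15 partners and targets of CHOP, 4 were tested. Jun rose by 1.83 ± 0.29 (log2, SE; limma adjusted p = 0.0012) by its brightest probe set, and by 1.11 and 1.14 by its other tested probe sets, which were also called. Jun passed within replicates 1 to 5 (2.04) and did not pass within replicates 6 to 8 (1.47, n = 3 each). Its partner Fos differed by -0.22 ± 0.18 and the death inducer Bcl2l11 by -0.00 ± 0.33. The Bcl2l11 estimates had opposite signs in the ranges. They were 0.57 ± 0.41 within replicates 1 to 5 and -0.96 ± 0.26 within replicates 6 to 8 (n = 3 each). The interaction of treatment with range passed for 0 of the 545 tested probe sets. The survival gene Bcl2, which CHOP is known to repress, differed by -0.03 ± 0.43. Its probe set, like Gadd45a L32591mRNA_at, did not overlap between the replicate ranges (-1.37), as was so for 4.95% of all tested probe sets. The C/EBP genes Cebpa, Cebpb and Cebpd had no probe set of their own.

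For Gadd45a, the p53 and growth arrest list held 19 genes, of which 8 had a probe set of their own and 3 were tested, none called. The p53 ubiquitin ligase Mdm2 differed by 0.04 ± 0.26 (log2, SE; 0.45 ± 0.31 by its other probe set), the death effector Bax by -0.03 ± 0.10 and Myc by -0.02 ± 0.19. Cdkn1a, the p53-induced inhibitor of cyclin-dependent kinases, had a probe set that did not pass the filter. These 3 were all close to 0 by their brightest probe sets.

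Of 17 binding partners and downstream kinases of Gadd45a, 7 were tested and none called, with a median of 0.14. The replication clamp gene Pcna differed by 0.17 ± 0.17 (log2, SE), Mapk12 (a p38 kinase) by 0.16 ± 0.35, Mapk10 (a JNK kinase) by 0.15 ± 0.24 and Cdk1 by 0.14 ± 0.26. By its other probe set Pcna was at -0.00, and Cdk1 was at -0.05 without DMSO control 3. Of 30 DNA repair genes 8 were tested and none called, with a median of -0.11. The repair polymerase Polb differed by -0.34 ± 0.28, the flap nuclease Fen1 by -0.27 ± 0.19 and the replicative polymerase Pold1 by -0.19 ± 0.25, while Parp1, a sensor of strand breaks, differed by 0.15 ± 0.34 (-0.20 without DMSO control 3). Pold1 had opposite signs in the ranges, -0.49 on the arrays numbered 1 to 5 and 0.30 on the others. The 95% intervals of these 4 genes all included 0.

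**Figure D4:**
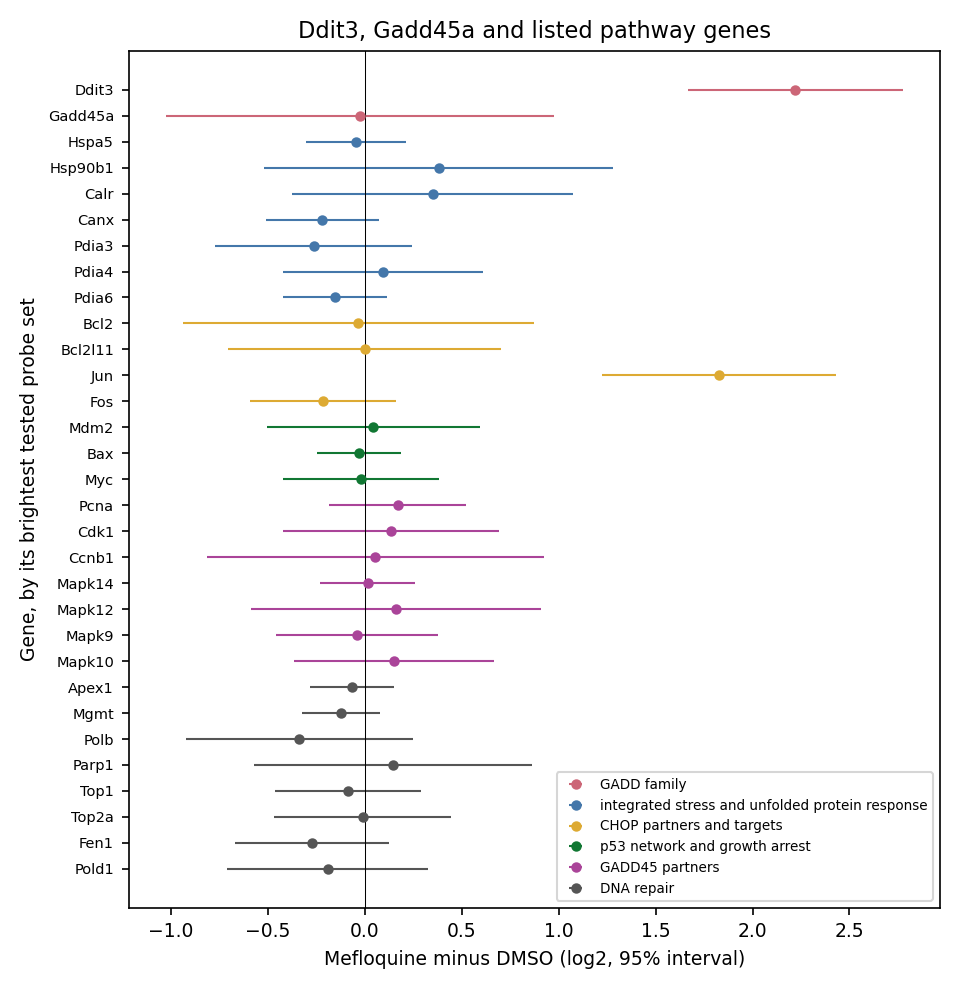
Log2 difference, mefloquine minus DMSO, with its 95% interval from limma (8 arrays per group) for Ddit3, Gadd45a and the 29 tested list genes, each by its brightest tested probe set and coloured by list. Ddit3 (2.22) and Jun (1.83) lie right of all others, and the intervals of the other genes include 0.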

How the data were processed

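Per the labels, the authors scaled each array by the standard Affymetrix chip factors and applied no further transformation, so the deposited table holds linear intensities. Each array received 10 µg of total RNA extracted with RNA STAT-60. The scanner software is not given in the sources used here. Of all values 26.9% were 0 or negative. Gene symbols come from the platform annotation. Values below the 25th percentile of all positive values (426.5 units) were raised to it before taking log2. Probe sets above it on at least 8 of 16 arrays (545 of 972) were fitted with limma 3.58.1 in R 4.3.3. Treatment was the only term, with Benjamini-Hochberg adjustment at 0.05. The fit and the adjustment were checked on simulated arrays with independent noise. That check did not cover the floor, the filter, a deviant array or a step between replicate ranges. The number of arrays limits the precision. Intensities are given as arithmetic means, and fold changes from log2 differences as ratios of geometric means.

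The members, lists and tests were chosen with earlier results of these data known. Named genes were all member probe sets, every called list gene, up to 4 further tested genes per list with the largest absolute difference, and the 3 genes most correlated with each member, with and without centring. Others are named for having no probe set, no filter pass or a range step, after their values were seen. Alternatives changed the scaling, floor, filter, variance model, array weights, covariates, blocks and arrays. Those for the range step were added after the data had been seen. Same-numbered arrays correlated in their deviations at 0.0569 to 0.593. Only 7 of 8 exceeded the 0.1 required of every pair, and the labels give no shared source, so the numbers were not used as pairs in the main model. The fit with the number as a block is given as an alternative.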

Additional observations from a re-analysis of the deposited data

Results flagged for a closer look

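Dixon's test at its 95% critical value was applied to the extreme floored log2 values in DMSO and in mefloquine arrays (8 each). It covered the tested member probe sets, the tested list and marker genes, and the genes most correlated with a member. The correlated genes were picked on these same arrays, so their outliers are not independent of those of the members. Of 86 such comparisons 14 stood out (16.3%), where chance gives about 1 in 20, and 10 of the 14 concerned DMSO control 3. Ddit3 on DMSO control 3 was high at 10.72, where the other controls lay between 8.74 and 9.57. The same array was high for Canx at 15.59 and Ndufab1 at 12.94. It was low for Hsp90b1 at 10.21, Calr at 10.76, Pdia4 at the floor (8.74), Mapk14 at 11.36, Parp1 at 10.34, Clu at 10.08 and Col1a1 at 10.25. On mefloquine 6, Bcl2 was at the floor (8.74), Mgmt was high at 9.05 and Top1 low at 10.91. Myc was high on mefloquine 5 at 11.13. No Gadd45a probe set stood out.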

How the results depend on the processing

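Over 29 alternatives the Ddit3 log2 difference lay between 1.74 and 2.42, and between 2.13 and 2.42 with each array left out in turn. That of Gadd45a L32591mRNA_at lay between -0.21 and 0.27, between -0.21 and 0.21 with 1 array left out, and changed sign in 13. Neither moved by more than 1 SD between arrays. Neither had a value where all 16 arrays had to exceed the floor. The Gadd45a step between replicate ranges lay between -1.92 and -1.01 over 23 alternatives, and between -1.92 and -1.68 with 1 array left out. With the replicate number as a block (replicate block), Ddit3 was at 2.22 ± 0.19 (SE), L32591mRNA_at at -0.03 ± 0.22 and 8 probe sets were called. The count of called probe sets, 7 in the main setting, was 4 after quantile normalization and with floors at the 10th or 40th percentile, 3 with all 16 arrays above the floor, where fewer probe sets are tested, and 1 in replicates 6 to 8 alone, where fewer arrays enter. It was 4 to 8 with 1 array left out, and 4 without DMSO control 2, 6, 7 or 8 or mefloquine 3 or 4. The count of called list genes was 1 (Jun) throughout, also with any array left out (1 to 1), except 0 in replicates 6 to 8 alone. Without DMSO control 3 the correlation of Ddit3 with L32591mRNA_at was 0.256 and the SD of Ddit3 among controls 0.31. Of the 28 list genes not called, 20 changed sign under some alternative and 3 moved by 1 SD or more. Values near the floor, as for most Gadd45a probe sets, limit what can be seen of a fall.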
